A study of Mus musculus with 44 samples.

Results

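The proteasome genes were taken as the rows of the count table whose symbol is Psma, Psmb, Psmc, Psmd, Psme, Psmf or Psmg followed by a number, which gave 48 of 46078 genes. They cover the subunits of the proteolytic core, the regulatory cap, the alternative caps, the inhibitor and the dedicated assembly factors. Within them, Psmb8, Psmb9, Psmb10, Psme1 and Psme2 were set against the other 43 and are called the inducible set. All 48 passed the filter on low counts, and 14537 genes were tested in all.

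The cells were peritoneal macrophages from C57BL/6 mice, elicited with thioglycolate and kept as the adherent fraction of a single isolate pooled from several animals. Cultures received an extract of H9c2 cells, a rat heart muscle line, at 10 µg/mL, lipopolysaccharide (LPS), a bacterial cell wall component, at 100 ng/mL, or interleukin-4 (IL-4), a cytokine of type 2 immunity, at 10 ng/mL, and control cultures received no stimulus. RNA was taken after 8, 24 and 72 h, with 4 libraries in each of the 12 groups except for 3 each in cell extract at 24 h, cell extract at 72 h, IL-4 at 72 h and control at 72 h. Since all cultures came from 1 pooled isolate, every p-value here measures the spread between cultures and not between animals, and the 3 stimuli share the same control libraries at each time. The groups differ only in stimulus and time, and none carries an engineered allele per the labels.

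The proteasome degrades proteins tagged with ubiquitin. Its barrel-shaped core is built from rings of alpha (Psma) and beta (Psmb) subunits, with the cutting sites in Psmb5, Psmb6 and Psmb7, and a cap of Psmc ATPases and Psmd subunits binds, unfolds and feeds in the substrate. In cells exposed to interferon, newly made cores take up Psmb8, Psmb9 and Psmb10 in place of Psmb5, Psmb6 and Psmb7, forming the immunoproteasome, and Psme1 and Psme2 form a ring-shaped activator that can replace the cap. Both changes are known to favour peptides that fit MHC class I molecules, and macrophages are known to make them after inflammatory stimulation.

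Promoter sequences of the inducible set and of the constitutive subunits Psmb5 and Psmb6 are shown because these genes moved together or apart in the comparisons described here. They come from RefSeq on GRCm38.p6, 250 bases before to 50 bases after the annotated start, 5′ to 3′ on the strand of the gene, and 40 of the 48 genes matched an entry. Windows lie at chr17:34197945-34198244 on the plus strand for Psmb8, chr17:34187281-34187580 on the minus strand for Psmb9, chr8:105938343-105938642 on the minus strand for Psmb10, chr14:55578244-55578543 on the plus strand for Psme1, chr14:55591052-55591351 on the minus strand for Psme2, chr14:54617946-54618245 on the minus strand for Psmb5 and chr11:70525107-70525406 on the plus strand for Psmb6. Capitals mark a match to 1 of 3 motifs searched on both strands: TTCNNNGAA (the gamma-activated site of interferon-responsive genes), GAAA, any 2 bases and GAAA again (the interferon-stimulated response element) and TGACNNNGC (the antioxidant response element, bound by factors of the Nfe2l1 family).
Psmb8: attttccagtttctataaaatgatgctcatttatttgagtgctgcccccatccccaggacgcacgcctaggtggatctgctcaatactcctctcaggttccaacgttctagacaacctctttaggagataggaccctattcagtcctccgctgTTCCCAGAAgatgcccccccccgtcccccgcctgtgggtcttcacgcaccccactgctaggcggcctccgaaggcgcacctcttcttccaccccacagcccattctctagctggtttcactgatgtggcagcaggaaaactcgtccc
Psmb9: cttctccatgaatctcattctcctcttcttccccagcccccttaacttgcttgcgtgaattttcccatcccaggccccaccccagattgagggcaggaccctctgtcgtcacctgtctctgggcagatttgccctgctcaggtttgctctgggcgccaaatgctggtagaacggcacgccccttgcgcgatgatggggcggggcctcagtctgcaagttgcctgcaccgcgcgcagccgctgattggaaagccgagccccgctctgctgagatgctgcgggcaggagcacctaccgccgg
Psmb10: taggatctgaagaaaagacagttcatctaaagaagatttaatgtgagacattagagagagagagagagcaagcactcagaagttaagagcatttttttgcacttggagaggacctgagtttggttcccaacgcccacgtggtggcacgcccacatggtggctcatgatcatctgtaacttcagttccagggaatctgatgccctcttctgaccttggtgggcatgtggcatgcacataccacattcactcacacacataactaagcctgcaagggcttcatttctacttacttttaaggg
Psme1: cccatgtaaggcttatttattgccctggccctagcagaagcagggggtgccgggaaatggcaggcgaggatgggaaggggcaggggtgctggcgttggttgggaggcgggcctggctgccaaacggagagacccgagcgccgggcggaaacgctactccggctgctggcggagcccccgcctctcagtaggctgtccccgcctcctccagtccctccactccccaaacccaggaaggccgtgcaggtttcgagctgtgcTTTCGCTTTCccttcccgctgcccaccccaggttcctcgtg
Psme2: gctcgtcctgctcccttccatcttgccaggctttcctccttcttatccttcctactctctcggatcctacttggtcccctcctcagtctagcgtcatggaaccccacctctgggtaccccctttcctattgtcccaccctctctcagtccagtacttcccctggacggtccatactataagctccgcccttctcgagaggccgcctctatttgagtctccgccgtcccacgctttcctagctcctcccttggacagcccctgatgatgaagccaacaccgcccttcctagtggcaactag
Psmb5: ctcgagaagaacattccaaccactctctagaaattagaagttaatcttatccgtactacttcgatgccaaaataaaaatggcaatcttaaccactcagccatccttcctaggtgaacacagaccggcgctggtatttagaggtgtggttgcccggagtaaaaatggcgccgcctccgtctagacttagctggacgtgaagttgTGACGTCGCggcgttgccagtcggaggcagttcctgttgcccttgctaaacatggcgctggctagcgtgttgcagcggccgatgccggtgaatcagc
Psmb6: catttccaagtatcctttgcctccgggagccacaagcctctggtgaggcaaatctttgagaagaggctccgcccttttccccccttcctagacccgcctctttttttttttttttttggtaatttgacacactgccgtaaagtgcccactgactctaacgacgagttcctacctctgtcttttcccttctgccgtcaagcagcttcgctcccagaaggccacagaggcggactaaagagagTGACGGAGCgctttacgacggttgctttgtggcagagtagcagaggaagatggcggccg

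The Psmb8 window held 1 match to the gamma-activated site, TTCCCAGAA, from 97 to 89 bases before the start (counted as −97 to −89), and the Psme1 window held 1 match to the interferon-stimulated response element on its minus strand, TTTCGCTTTC, just after the start. Psmb5 and Psmb6 each held 1 match to the antioxidant response element, TGACGTCGC and TGACGGAGC. No match to any of the 3 motifs lay in the windows of Psmb9, Psmb10 or Psme2. Over all 32851 promoter windows of the same length, 8.3% held the gamma-activated site, 3.44% the interferon-stimulated response element and 12.4% the antioxidant response element. The 3 patterns were found in 2, 4 and 6 of the 35 genes outside the inducible set with a window, with Psmb5 and Psmb6 among the 6. These are matches of letters in a short window and say nothing of binding. Psmb9 lies head to head with Tap1, a subunit of the peptide transporter of MHC class I loading, and their windows share 275 bases at chr17:34187306-34187580.

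Depth varied widely, between 908458 and 26616968 counts in genes per library, and the proteasome genes took 0.495% to 1.31% of them. The shallowest libraries were replicate 1 of IL-4 at 24 h, with 908458 counts, and replicate 1 of LPS at 72 h, with 1103271 counts, and both stood above the other libraries of their group in summed proteasome CPM (counts per 1000000, scaled by TMM factors). That sum was 10498 in replicate 1 of IL-4 at 24 h, against 5606, 5457 and 5513 in replicates 2 to 4, and 13941 in replicate 1 of LPS at 72 h, against 9315, 9867 and 10952. In 7 libraries, all replicate 3, the ribosomal RNA gene Rn18s-rs5 was the most abundant gene. Macrophage markers summed to 7901 CPM or more in every library, most of it Lyz2, the lysozyme gene of macrophages. Several Psm genes overlap a neighbour in GENCODE M21, and the strand setting of the counting is not given in the sources used here. Of the exon bases of Psmb8, 14.7% lie under the antisense gene Gm20496, of Psmb9 5.8% under Tap1 and of Psmb7 11.8% under Nek6. For Psmb5 12.1% lie under the microRNA gene Mir686 on the same strand, and for Psmd9 25.5% under Gm26745 on the opposite strand. Reads in these stretches cannot be told apart. Psme2 also has a near-identical retrogene, Psme2b, with 3880 counts over all libraries against 105417 for Psme2.

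LPS raised all 5 genes of the inducible set at every time, and these calls held in every alternative fit. Psme2 was 8.50-fold higher at 8 h, 10.3-fold at 24 h and 6.36-fold at 72 h. Psmb10, the inducible counterpart of Psmb7, was 7.94-fold, 8.19-fold and 4.41-fold higher. Of the 48 genes, 32 were higher and 0 lower with LPS at 8 h, where 21.3% of all genes tested were higher and 24.1% lower. With the replicate number as a block 3 were lower there. At 24 h 40 were higher and 0 lower (18.6% and 19.3% of all genes), and at 72 h 24 were higher and 0 lower (16.1% and 15.4% of all genes).

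Psme2, a subunit of the ring-shaped activator, had 817, 692, 678 and 802 CPM with LPS at 8 h, against 111, 84.6, 74.0 and 81.7 CPM in controls. Its partner Psme1 had 559, 448, 476 and 484 CPM with LPS, against 118, 89.7, 109 and 87.8 CPM in controls. For both partners of the activator every LPS library lay far above every control. Psmb8, which replaces Psmb5, had 708, 580, 777 and 860 CPM with LPS at 8 h, against 159, 128, 184 and 148 CPM in controls. Psmb9, which replaces Psmb6, had 327, 309, 377 and 446 CPM with LPS, against 55.9, 42.5, 59.1 and 53.0 CPM in controls. Psmb10 had 531, 420.1, 564 and 718 CPM with LPS, against 81.0, 57.4, 71.9 and 71.2 CPM in controls. For Psmb8, Psmb9 and Psmb10 too, every LPS library lay above every control. The share of all genes tested that separate in this way was not counted. The log2 fold changes at 8 h (± SE, edgeR quasi-likelihood test) were 3.09 ± 0.24 for Psme2, 2.99 ± 0.28 for Psmb10, 2.80 ± 0.20 for Psmb9, 2.28 ± 0.23 for Psme1 and 2.24 ± 0.25 for Psmb8, with edgeR adjusted p between 5.04e-15 and 5.63e-10.

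The separation lasted to 72 h. At 24 h Psmb8 had 911, 789, 790.1 and 882 CPM with LPS, against 88.7, 112, 126 and 135 CPM in controls, and at 72 h it had 1321, 716, 786 and 869 CPM with LPS, against 134, 146 and 166 CPM in controls. The highest value belongs to the shallow replicate 1, and the other 3 LPS libraries also lay above every control. The median log2 fold change of the inducible set was 2.80 at 8 h, 2.86 at 24 h and 2.52 at 72 h, against 0.55, 0.96 and 0.46 for the other 43 genes and 0.00, −0.07 and 0.05 for all genes tested. A test of the LPS effect at 72 h minus that at 8 h called none of the 5: the difference was 0.39 ± 0.35 for Psmb8, −0.28 ± 0.29 for Psmb9, −0.85 ± 0.39 for Psmb10, −0.08 ± 0.33 for Psme1 and −0.42 ± 0.34 for Psme2. The smallest edgeR adjusted p among them was 0.101, for Psmb10.

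**Figure D1:**
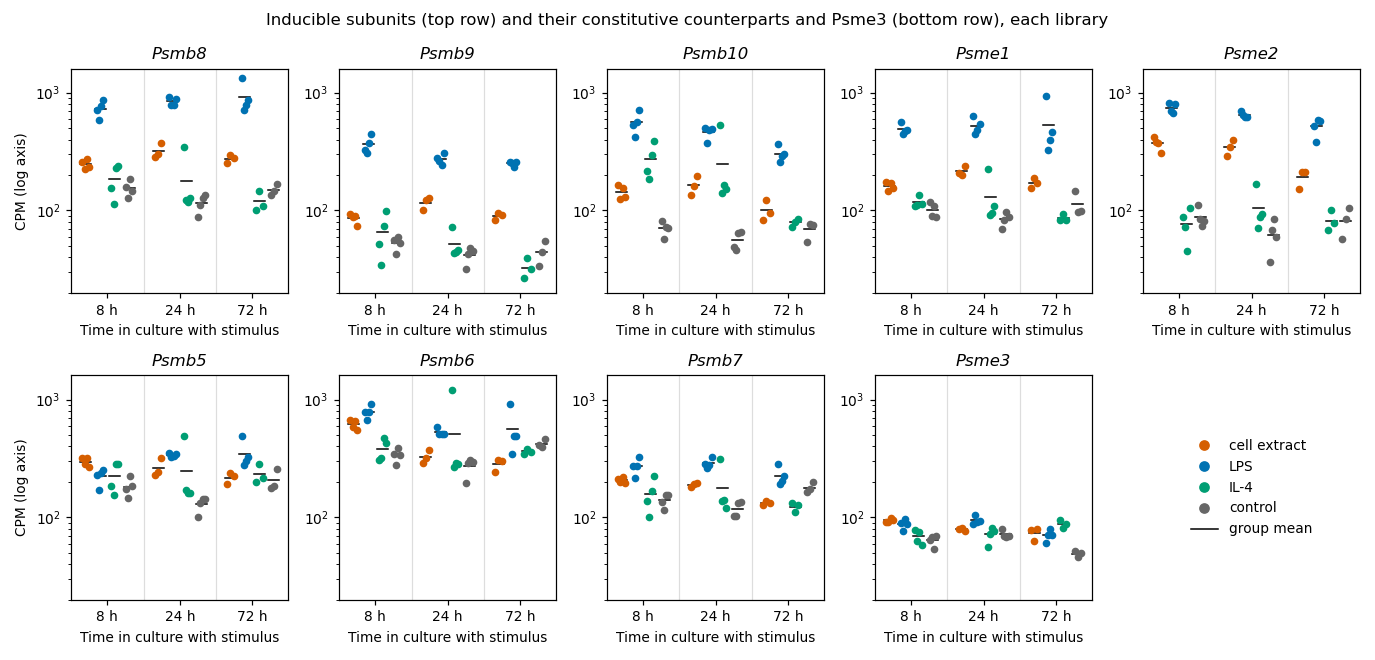
CPM on a log axis in each library for the 5 inducible genes (top row) and for Psmb5, Psmb6, Psmb7 and Psme3 (bottom row), by time and stimulus, with dots for libraries and bars for group means. In the top row the LPS dots stand above all others at each time except for Psmb10 at 24 h, where replicate 1 of IL-4 reached 531 CPM, while in the bottom row the groups lie closer together.

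The cell extract raised the inducible set to a lesser height. All 5 genes were higher than controls at 8 and 24 h, and Psmb8, Psmb9 and Psme2 at 72 h. Psme2 led at each time, at 4.22-fold, 5.48-fold and 2.35-fold. Over all 48 genes, 31 were higher and 0 lower at 8 h (13.0% and 17.2% of all genes tested), 30 higher and 1 lower at 24 h (11.7% and 10.4%), and 7 higher and 2 lower at 72 h (14.2% and 12.2%).

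Psme2 had 420.3, 383, 375 and 307 CPM with cell extract at 8 h, against the 74.0 to 111 CPM of the controls, and 151, 210.1 and 214 CPM at 72 h, against 57.0, 83.9 and 105 CPM in controls. No library overlapped at either time. Psmb8 had 257, 227, 276 and 232 CPM with cell extract at 8 h, 286, 300.4 and 376 CPM at 24 h, and 255, 296 and 276 CPM at 72 h, in each case above the highest control of that time, which was 184, 135 and 166 CPM. On the log2 scale the set moved by a median of 0.72 at 8 h, 1.47 at 24 h and 0.89 at 72 h, against 0.56, 0.49 and 0.03 for the other 43 genes and −0.06, −0.06 and 0.00 for all genes tested. The edgeR adjusted p lay between 2.11e-09 (Psme2) and 0.0273 (Psmb8) at 8 h and between 1.9e-10 (Psme2) and 4.03e-05 (Psmb10) at 24 h. At 72 h Psmb10 (0.54 ± 0.31, edgeR adjusted p = 0.21) and Psme1 (0.59 ± 0.26, edgeR adjusted p = 0.0918) did not pass. Some smaller changes lost their call, at about the same size, when 1 library was left out. Psmb8 at 8 h missed the threshold without control replicate 2 (log2 0.60, edgeR adjusted p = 0.0903), control replicate 4 (0.66, 0.0612) or cell extract replicate 1 (0.66, 0.0546), and Psme1 at 8 h without control replicate 2 (0.62, 0.0556) or 4 (0.62, 0.0566). Psmb8 at 72 h missed it without control replicate 1 (0.83, 0.0571) or 3 (0.88, 0.0505) or cell extract replicate 3 (0.83, 0.0519), and Psme1 at 72 h passed without control replicate 1 (0.83, 0.0366), with no filter on low counts (0.68, 0.0204), with the groups alone (0.52, 0.0489) and without replicate 1 of control at 8 and 24 h and of IL-4 at 24 h (0.58, 0.0415). Psmb8 at 72 h also missed it without the 7 libraries rich in ribosomal RNA (0.85, edgeR adjusted p = 0.102). Psmb10 at 72 h passed with no filter on low counts (0.62, edgeR adjusted p = 0.0446).

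Set directly against LPS, the cell extract gave lower levels of all 5 genes at every time. The smallest gap was that of Psme2, 2.01-fold lower at 8 h, 1.87-fold at 24 h and 2.71-fold at 72 h, and the largest at 8 h was that of Psmb9, 4.23-fold lower. At 72 h Psmb8 averaged 276 ± 20.5 CPM with cell extract (SD, n = 3) and 923 ± 272 CPM with LPS (n = 4), and the libraries did not overlap. Over all 48 genes, 3 were higher and 11 lower with cell extract than with LPS at 8 h (14.0% and 15.1% of all genes tested), 0 higher and 21 lower at 24 h (8.06% and 8.76%), and 1 higher and 27 lower at 72 h (11.0% and 11.4%). Psme2 at 24 h missed the threshold without cell extract replicate 2 (log2 −0.80, edgeR adjusted p = 0.0641). The count of 28 called at 72 h fell to 18 without LPS replicate 1 and to 17 without cell extract replicate 3.

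Among the other members, 4, 4 and 7 of the 8 alpha subunit genes were lower with cell extract than with LPS at 8, 24 and 72 h. Of all genes tested 15.1%, 8.76% and 11.4% were lower there. Psma5 was lower with cell extract at 8 h (−0.73), 24 h (−1.05) and 72 h (−1.19 on the log2 scale). Psme4, a nuclear activator of the core, was lower with cell extract at 8 h (−0.89 ± 0.18) and higher at 72 h (0.72 ± 0.19). At 8 h Psmg1, a chaperone of the alpha ring, and Psmd5, a chaperone of the cap base, were higher with cell extract (0.82 and 0.71), together with Psma8, a testis-type alpha subunit with 1371 counts over all 44 libraries. Psma7 and Psmd1 were lower at 72 h (−1.35 and −1.32), and both missed the threshold without LPS replicate 1 (−0.81 with edgeR adjusted p = 0.0526, and −0.34 with 0.234).

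With IL-4, Psmb10 was the 1 gene of the inducible set called at more than 1 time. It was 3.86-fold higher with IL-4 at 8 h and 4.25-fold at 24 h, and 1.16-fold at 72 h, where it did not pass. It had 216, 186, 294 and 389.7 CPM with IL-4 at 8 h, against 81.0, 57.4, 71.9 and 71.2 CPM in controls. It had 531, 140.4, 164 and 152 CPM with IL-4 at 24 h, against 49.4, 46.1, 63.9 and 65.8 CPM in controls. It had 72.8, 80.2 and 85.2 CPM with IL-4 at 72 h, against 54.3, 77.2 and 75.5 CPM in controls. Every IL-4 library was above every control at 8 and 24 h, and at 72 h the groups overlapped.

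The log2 fold change of Psmb10 with IL-4 was 1.95 ± 0.27 at 8 h (edgeR adjusted p = 1.31e-06), 2.09 ± 0.27 at 24 h (edgeR adjusted p = 4.87e-07) and 0.21 ± 0.31 at 72 h (edgeR adjusted p = 0.659). The effect at 72 h minus that at 8 h was −1.74 ± 0.41 (edgeR adjusted p = 0.00297). The calls at 8 and 24 h and that of the difference remained in each of the 15, 15 and 21 alternative fits. The value at 24 h was 1.44 without the shallow replicate 1. The other 2 inducible catalytic subunits did not follow: Psmb8 moved by 0.25 ± 0.24, 0.59 ± 0.24 and −0.32 ± 0.28 and Psmb9 by 0.31 ± 0.20, 0.23 ± 0.20 and −0.42 ± 0.23 at 8, 24 and 72 h, all with edgeR adjusted p of 0.134 or more. Psme2 was called at 24 h (0.70 ± 0.23, edgeR adjusted p = 0.0488), with 168, 71.4, 87.5 and 92.5 CPM with IL-4 and 36.8, 68.6, 84.3 and 59.2 CPM in controls. These libraries overlap, and the call did not hold without IL-4 replicate 1 (0.43, edgeR adjusted p = 0.291) or 4 (0.75, 0.0569) or control replicate 1 (0.52, 0.226), 2 (0.75, 0.0727) or 4 (0.68, 0.102).

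Over all 48 genes, 1 was higher and 0 lower with IL-4 at 8 h (4.29% and 4.04% of all genes tested), 14 higher and 0 lower at 24 h (4.74% and 4.76%), and 3 higher and 2 lower at 72 h (13.2% and 10.5%). The count of 1 at 8 h became 3 without IL-4 replicate 1. The count of 14 at 24 h became 5 without IL-4 replicate 1, 2 without control replicate 1, 7 without control replicate 2 and 9 without control replicate 4. Psmb6 shows the dependence: it had 1216 CPM in IL-4 replicate 1 and 269, 292 and 282 CPM in replicates 2 to 4, against 195, 288, 305 and 294 CPM in controls. Its log2 fold change of 0.91 (edgeR adjusted p = 0.0409) became 0.06 without IL-4 replicate 1 (edgeR adjusted p = 0.934). Psmb5 (0.89), Psma4 (0.89) and Psmb3 (0.77) were likewise called and became 0.35, 0.47 and 0.32 without that library (edgeR adjusted p = 0.339, 0.201 and 0.235).

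The ratio of each inducible catalytic subunit to the one it replaces was compared within libraries, where scaling cancels. Ratios are log2 of the counts with 0.5 added, differences are stimulus minus control, and the exact permutation test was two-sided, adjusted over 27 comparisons. Levels of different genes are not compared by these ratios, which are not per length. With LPS all 3 ratios were higher at all 3 times, by 1.94, 1.48 and 1.86 for Psmb8 to Psmb5, 1.57, 1.74 and 2.21 for Psmb9 to Psmb6 and 2.02, 1.75 and 1.83 for Psmb10 to Psmb7 at 8, 24 and 72 h. In each case every LPS library lay above every control, with the smallest p that these numbers of libraries allow (exact permutation p = 0.0286, adjusted 0.0454).

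With cell extract 1 of the 3 ratios overlapped with controls at 8 h. Psmb8 to Psmb5 was −0.30, −0.32, −0.21 and −0.20 with cell extract at 8 h, against −0.12, −0.18, −0.30 and −0.31 in controls, a difference of −0.03 (exact permutation p = 0.514, adjusted 0.555). At 24 h it was 0.31, 0.31 and 0.24 with cell extract, against −0.17, −0.23, −0.19 and −0.07 in controls, a difference of 0.45 (exact permutation p = 0.0286, adjusted 0.0454). The groups overlapped at 8 h, when Psmb8 and Psmb5 were both higher with cell extract, and stood apart at 24 h. Like that of Psmb8, the Psmb5 call at 8 h was lost in some fits. It missed the threshold without control replicate 1 (log2 0.68, edgeR adjusted p = 0.0527) or 2 (0.61, 0.0854) or cell extract replicate 1 (0.67, 0.0532). Psmb9 to Psmb6 differed by −0.16 at 8 h, lower in all 4 cell extract libraries, and by 1.20 at 24 h, higher in all 3 (adjusted 0.0454 each, exact permutation test). Psmb10 to Psmb7 differed by 0.46 at 8 h and 0.84 at 24 h, with all cell extract libraries above all controls (adjusted 0.0454 each, exact permutation test). At 72 h the differences were 0.81, 1.63 and 0.97 for the 3 pairs, with no overlap, but 3 libraries against 3 allow no exact permutation p below 0.1 (adjusted 0.123).

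IL-4 split the pairs. Psmb10 to Psmb7 was 0.63, 0.87, 0.82 and 0.79 with IL-4 at 8 h, against −1.12 to −0.74 in controls, a difference of 1.77, and differed by 1.40 at 24 h (adjusted 0.0454 each, exact permutation test) and by 0.75 at 72 h (adjusted 0.123). At 8 h every IL-4 library lay below the 0.97, 0.95, 1.05 and 1.13 of LPS, though nearer to them than to the controls. Psmb8 to Psmb5 went the other way, with differences of −0.09 at 8 h (adjusted 0.336), −0.28 at 24 h (adjusted 0.0454) and −0.51 at 72 h (adjusted 0.123, all by the exact permutation test). Psmb9 to Psmb6 overlapped between IL-4 and control libraries at all 3 times.

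**Figure D2:**
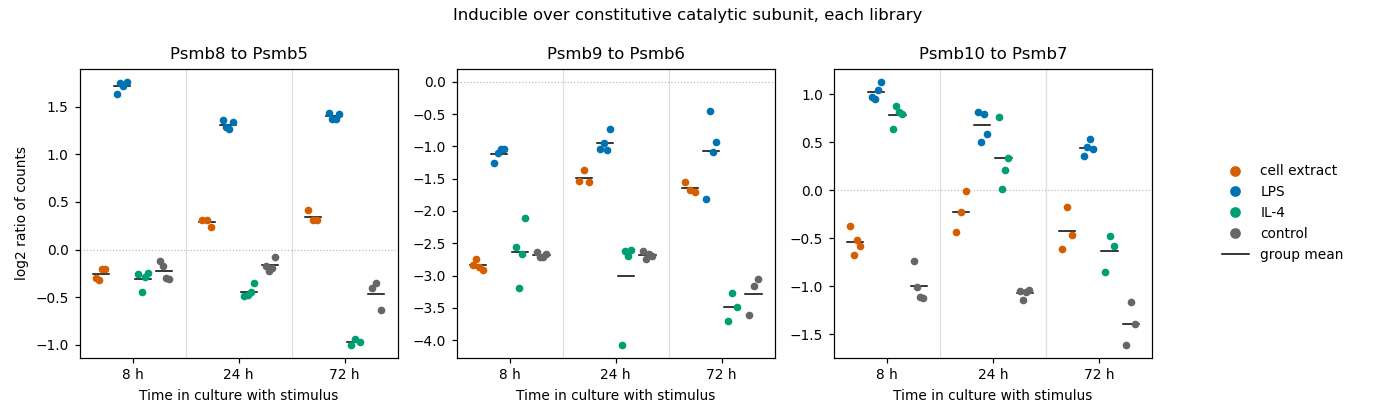
Log2 ratio of the counts of Psmb8 to Psmb5, Psmb9 to Psmb6 and Psmb10 to Psmb7 in each library (vertical axis), by time and stimulus, with dots for libraries and bars for group means. LPS libraries lie highest in the first 2 panels except for 1 at 72 h in the second. In the third the IL-4 libraries lie below LPS at 8 h, at 0.63 to 0.87 against 0.95 to 1.13, and fall back at 72 h.

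Per kilobase of exon (the union of exons over all GENCODE transcripts, which overstates the length of short isoforms), Psmb10 averaged 327 CPM per kb with LPS at 8 h, against 41.3 CPM per kb in controls, and its counterpart Psmb7 averaged 79.7 CPM per kb with LPS, against 41.0 CPM per kb in controls. Psmb8 averaged 216 CPM per kb with LPS, against 45.8 CPM per kb in controls, while Psmb5 averaged 247 CPM per kb with LPS, against 202 CPM per kb in controls. Psmb9 averaged 99.7 CPM per kb with LPS, against 14.4 CPM per kb in controls, and Psmb6 averaged 420.0 CPM per kb with LPS, against 181 CPM per kb in controls. With LPS at 8 h only Psmb10 of the 3 exceeded the subunit it replaces on this scale. For Psmb8 and Psmb5 the order rests on exon lengths of 3381 and 899 bases. Without scaling by length Psmb8 had more counts than Psmb5 there (mean log2 ratio 1.72). In the control the order from highest was Psmb5, Psmb6, Psmb8, Psmb10, Psmb7 and Psmb9. The neighbours from Psmb8 to Psmb7, at 45.8 ± 6.95, 41.3 ± 5.70 and 41.0 ± 5.57 CPM per kb (SD, n = 4), lay within 1 SD of each other.

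Among the other 43 genes the alpha subunits of the core moved most with LPS. Of 8 alpha subunit genes, 7 were higher with LPS at 8 h, 7 at 24 h and 5 at 72 h, with medians of 1.24, 1.44 and 0.78 on the log2 scale, and Psma8 was never called. Psma5 had 232, 208, 287 and 321 CPM with LPS at 8 h, against 63.9, 62.4, 84.6 and 76.6 CPM in controls, and was higher by 1.87 ± 0.19, 2.26 ± 0.19 and 1.56 ± 0.21 on the log2 scale at the 3 times. With cell extract Psma5 was higher by 1.14 at 8 h and 1.21 at 24 h, and at 72 h by 0.37, which did not pass. Of the 7 constitutive beta subunits, 5, 7 and 3 were higher with LPS at 8, 24 and 72 h and 5, 4 and 1 with cell extract. The shares of all genes tested that were higher were 21.3%, 18.6% and 16.1% with LPS and 13.0%, 11.7% and 14.2% with cell extract. The count of 1 beta subunit with cell extract at 72 h lies near that share. Psmb5 was not called with LPS at 8 h (0.29 ± 0.24) but was at 24 h (1.39 ± 0.25). At 72 h it was called at 0.74, and lost the call without LPS replicate 1 (0.50, edgeR adjusted p = 0.166), control replicate 1 (0.64, 0.132) or control replicate 3 (0.63, 0.138). Psmb6 and Psmb7 were higher with LPS at 8 h (1.22 and 0.96) and 24 h (0.96 and 1.29) and not called at 72 h (0.40 and 0.32). The thymus-type subunit Psmb11, with 726 counts over all libraries, was not called in any comparison.

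In the cap, 4, 6 and 2 of the 6 Psmc ATPases and 7, 8 and 4 of the 11 non-ATPase subunits were higher with LPS at 8, 24 and 72 h. With cell extract the counts were 5, 5 and 0 ATPases and 7, 6 and 1 non-ATPase subunits. Of all genes tested, 21.3%, 18.6% and 16.1% were higher with LPS and 13.0%, 11.7% and 14.2% with cell extract. The cell extract counts at 72 h do not exceed that share. Psmc6, an ATPase, rose most of its class with LPS at 24 h (1.28), and Psmd11, a lid subunit, did so among the non-ATPases (1.20). Psmd2, a large scaffold subunit of the cap base, was called in none of the 9 comparisons with control and moved by no more than 0.21 on the log2 scale. Psmd8, a lid subunit, had 418, 442 and 475 CPM with cell extract at 24 h, against 592, 579, 644 and 642 CPM in controls. It was the 1 member lower there (−0.47 ± 0.15, edgeR adjusted p = 0.0183), and missed the threshold without cell extract replicate 2 (−0.42, 0.0911) or 3 (−0.46, 0.0618). Psmd1, a further scaffold subunit, was called with LPS at 72 h (1.37), where replicate 1 decides the value: without it the change was 0.43 (edgeR adjusted p = 0.0936).

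Psmd10, known as gankyrin and a chaperone of cap assembly, was the most changed of the other 43 in all 3 cell extract comparisons. It had 164, 174, 189 and 160.3 CPM with cell extract at 8 h, and 196, 151, 204 and 199.5 CPM with LPS, against 50.5, 48.6, 52.8 and 55.8 CPM in controls. The stimulated libraries overlapped each other and lay apart from every control. Its log2 fold change was 1.73 ± 0.15, 1.62 ± 0.16 and 1.19 ± 0.18 with cell extract and 1.85 ± 0.15, 2.17 ± 0.15 and 2.25 ± 0.18 with LPS at 8, 24 and 72 h. Cell extract and LPS differed by −0.13 at 8 h, which did not pass, by −0.55 at 24 h and by −1.06 at 72 h, both called. The other cap chaperones moved less: Psmd5 rose with cell extract at 8 and 24 h (0.71 and 0.61) and with LPS at 24 and 72 h (0.92 and 0.54), and Psmd9 was not called with either. The 4 chaperones of the core, Psmg1 to Psmg4, were called in 0, 2 and 1 cases with LPS and 0, 1 and 0 with cell extract at the 3 times. Of all genes tested, 21.3%, 18.6% and 16.1% were higher and 24.1%, 19.3% and 15.4% lower with LPS. With cell extract 13.0%, 11.7% and 14.2% were higher and 17.2%, 10.4% and 12.2% lower. With 4 genes the counts cannot be set apart from those shares.

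The activators outside the inducible set and the inhibitor changed less. Psme3, the nuclear relative of Psme1 and Psme2, was higher with LPS by 0.45 ± 0.11, 0.39 ± 0.11 and 0.53 ± 0.13 on the log2 scale. With IL-4 at 72 h it had 94.2, 81.8 and 88.2 CPM, against 51.5, 45.9 and 50.3 CPM in controls, a rise of 0.84 ± 0.13, while at 8 h it moved by 0.11, and the difference between those effects was 0.73 ± 0.17 (edgeR adjusted p = 0.00348). Cell extract raised Psme3 too, by 0.55 to 0.64 at 8 h and 0.52 to 0.68 at 72 h over the alternative fits, with no call lost. At 24 h it moved by 0.12 to 0.19 in those fits and was not called. Psme3 was called lower in control 72 h than in control 8 h (−0.45 to −0.29 over the alternative fits). That call was lost in 11 of 14 fits. Psmf1, the inhibitor PI31, was higher with LPS by 0.33, 0.32 and 0.42 at 8, 24 and 72 h.

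**Figure D3:**
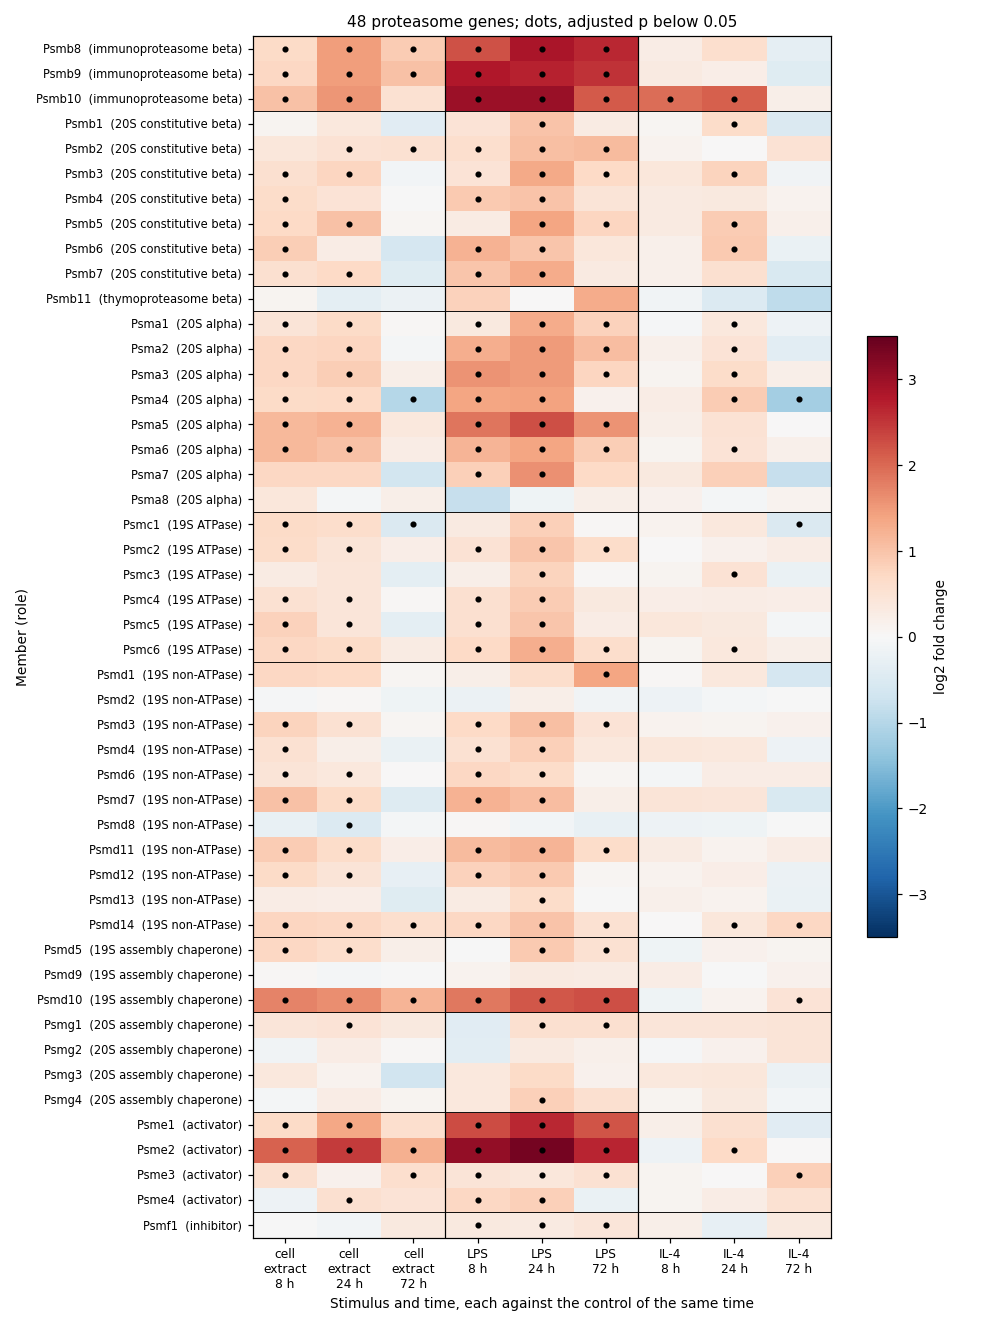
Log2 fold change of each of the 48 genes (rows, grouped by role) in the 9 comparisons of a stimulus with its control (columns), red for higher and blue for lower, with a dot where the edgeR adjusted p was below 0.05. The inducible genes, Psmd10 and Psma5 carry the deepest red with LPS, up to 3.36 for Psme2 at 24 h, and in the IL-4 columns Psmb10 stands alone at 8 h.

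At 72 h 4 of the other 43 genes were higher with cell extract and 2 lower, against 26 higher and 0 lower at 8 h. Of all genes tested, 14.2% were higher and 12.2% lower at 72 h, and 13.0% higher and 17.2% lower at 8 h. The counts at 72 h lie below those shares. The median of the other 43 was 0.03 at 72 h, and 16 of the 48 genes had a lower effect at 72 h than at 8 h against 0 with a higher one, where 8.75% of all genes tested were lower and 13.1% higher in that difference. None of the inducible set was among the 16, but Psme2 (−0.85 ± 0.35, edgeR adjusted p = 0.0787) passed without control 8 h replicate 1 (−0.98, 0.0471) or control 72 h replicate 1 (−1.04, 0.0371), and also with RLE factors (−0.98, 0.0484), with DESeq2 (−0.98, 0.032), with the groups alone (−0.89, 0.0291) and without replicate 1 of control at 8 and 24 h and of IL-4 at 24 h (−0.98, 0.0128). The largest falls were in Psma4 (−1.66 ± 0.37), Psmd7 (−1.47), a lid subunit, and Psmb6 (−1.46). Psmb6 had 240.4, 306 and 299.5 CPM with cell extract at 72 h, against 412, 396 and 462 CPM in controls, and 674, 587, 659 and 554 CPM with cell extract at 8 h, against 348, 279, 388 and 337 CPM in controls. It lay above controls at 8 h, a call that missed the threshold on omitting control replicate 2 (0.79, 0.0629), and below them at 72 h (−0.59, not called). There it was called with the groups alone (−0.65, 0.00952) and without replicate 1 of control at 8 and 24 h and of IL-4 at 24 h (−0.59, 0.0242). Psma7 (−1.36) did not pass without control replicate 2 at 8 h (−1.23, 0.0624), control replicate 1 at 72 h (−1.12, 0.095) or cell extract replicate 2 or 4 at 72 h (−1.29, 0.066, and −1.32, 0.0612).

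Psma4 also differed between the controls of both times. Psma4, an alpha subunit, had 426, 289 and 416 CPM in controls at 72 h, against 176, 155, 272 and 209.7 CPM in controls at 8 h, and was called higher in control 72 h (0.90 ± 0.26, edgeR adjusted p = 0.0163). Psma4 was lower at 72 h with cell extract (158, 217 and 195 CPM; −0.99 ± 0.28) and with IL-4 (165, 158 and 171 CPM; −1.19 ± 0.28) than in those controls. Over all 48 genes, 3 were higher and 2 lower in control 72 h than in control 8 h (6.38% and 7.16% of all genes tested), and none of the 5 inducible genes was called. The 5 calls are not stable: the number fell to 0 without control 8 h replicate 1 or control 72 h replicate 1, to 1 without control 8 h replicate 2 or control 72 h replicate 4, and to 2 without control 8 h replicate 4, and Psma4 itself missed the threshold in 4 of these fits (edgeR adjusted p of 0.0529 to 0.096). Control cultures at 72 h also differed in markers of other cells. The 6 fibroblast markers summed to 1090.2, 487 and 569 CPM there, against 141 to 160 CPM in controls at 8 h, and the 8 mesothelial markers to 103, 69.0 and 72.8 CPM, against 11.6 to 18.5 CPM. In the stimulated groups at 72 h the fibroblast sums were 196 to 230 CPM with cell extract, 158 to 291 CPM with LPS and 89.9 to 204 CPM with IL-4, and the mesothelial sums 17.5 CPM or less. Their part in the results at 72 h was not tested, and in bulk RNA a change in the share of a cell type and a change in its RNA content per cell cannot be told apart.

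For LPS the effect at 72 h minus that at 8 h was higher for 4 and lower for 7 of the 48 genes (15.7% and 14.3% of all genes tested). The 11 became 7 without any 1 of the 3 control libraries at 72 h. Psma4 (−1.24), Psmd7 (−1.01) and Psme4 (−0.94) fell most, and Psmd1 (1.16), Psmg1 (0.96) and Psmd5 (0.54) were higher. On omitting control 72 h replicate 1, Psmd7 (−0.76, edgeR adjusted p = 0.0779) and Psmg1 (0.68, 0.0569) did not pass. Psmd1 again rests on LPS 72 h replicate 1 (0.23 without it, edgeR adjusted p = 0.568), and lost its call on leaving out any of 9 libraries in all, while Psmd5 lost it for 5. For IL-4 the difference was higher for 2 and lower for 3 (9.51% and 6.57% of all genes tested), and the 5 became 10 without IL-4 8 h replicate 2. The 5 were Psmd14 (0.70), the deubiquitinase of the lid, and Psme3, which were higher, and Psmb10, Psma4 (−1.45) and Psmd7 (−0.98), which were lower. Psmd7 did not pass on omitting any 1 of 9 libraries, with an edgeR adjusted p up to 0.15.

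**Figure D4:**
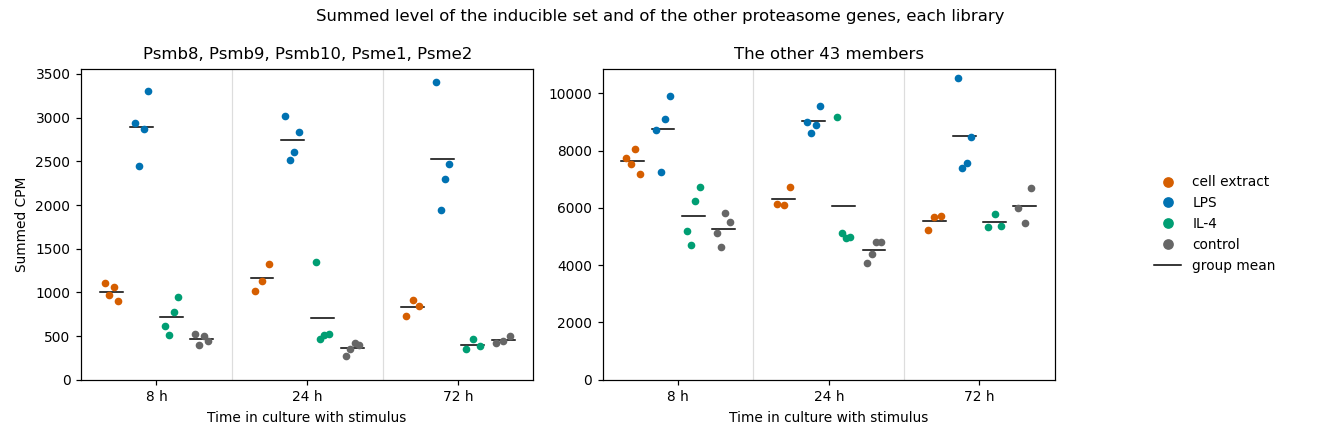
Summed CPM of the 5 inducible genes (left) and of the other 43 (right) in each library, by time and stimulus, from 0, with dots for libraries and bars for group means. The inducible sum averaged 2894 with LPS at 8 h against 467 in controls, while the sum of the rest averaged 8740 with LPS against 5270 in controls.

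Markers of other leukocytes moved with LPS as well. The 6 natural killer cell markers summed to 93.9 to 113 CPM with LPS at 8 h, against 0.746 to 5.25 CPM in controls, and nearly all of it was Klrk1, at a mean of 101.6 CPM with LPS against 1.47 CPM in controls, while Ncr1 (0.13 against 0.10 CPM) and Prf1 (0.21 against 0.13 CPM) were near 0 in both. Of the remaining 3, Eomes averaged 1.49 CPM with LPS against 0.24 CPM in controls, Gzma 0.90 against 0.089 CPM and Klrb1c 0.087 against 0.18 CPM. The 6 T cell markers summed to 22.5 to 31.5 CPM with LPS at 8 h, against 3.52 to 4.43 CPM in controls, of which Lck gave 20.4 CPM with LPS against 1.80 CPM in controls. The other 5 averaged 0.97 to 1.42 CPM with LPS against 0.26 to 0.57 CPM in controls, each higher with LPS, among them Cd3e at 0.97 against 0.45 CPM. The 6 dendritic cell markers summed to 23.5 to 38.1 CPM, against 6.61 to 12.3 CPM, and the 6 B cell markers to 30.4 to 34.3 CPM, against 12.3 to 15.8 CPM. With cell extract at 8 h the natural killer sum was 1.70 to 3.12 CPM and the T cell sum 5.48 to 8.54 CPM. Their part in the rise of the inducible set was not tested.

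Genes known to work beside the immunoproteasome were counted in lists, beside 21.3%, 18.6% and 16.1% of all genes higher with LPS at 8, 24 and 72 h (24.1%, 19.3% and 15.4% lower) and 13.0%, 11.7% and 14.2% higher with cell extract (17.2%, 10.4% and 12.2% lower). Among 12 genes of class I peptide supply and loading, 7, 7 and 7 were higher with LPS at 8, 24 and 72 h and 1, 0 and 1 lower, and 5, 10 and 6 were higher with cell extract and 0, 0 and 2 lower, with median log2 fold changes of 1.05, 1.54 and 1.21 with LPS and 0.25, 0.99 and 0.43 with cell extract. Tap1, the neighbour of Psmb9, averaged 897 ± 47.7 CPM with LPS at 8 h and 69.6 ± 22.6 CPM in controls (SD, n = 4 each), a log2 fold change of 3.69 with LPS and 1.31 with cell extract. With IL-4 at 8 h Tap1 moved by −0.11 (not called). Tapbp, the chaperone tapasin, was higher by 2.54 with LPS and 0.98 with cell extract at 8 h. Among 9 tested regulators, 7, 8 and 8 were higher with LPS and 7, 7 and 7 with cell extract, and 1 was lower in each, Ifngr1, the ligand-binding chain of the interferon gamma receptor. The median log2 fold changes of the list were 0.85, 1.05 and 1.07 with cell extract at 8, 24 and 72 h and 1.92, 1.53 and 1.46 with LPS. Ifngr1 was higher with IL-4 at 8 h (0.71) and 24 h (0.54), the only regulator called there. Stat2 and Irf1, transcription factors of the interferon response, were higher with LPS at 8 h by 3.83 and 4.51 and with cell extract by 0.84 and 3.04. With IL-4 at 8 h Stat2 and Irf1 moved by 0.16 and 0.55, and neither was called. The part of these factors in the changes of the Psm genes was not tested.

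Partners of the proteasome outside the Psm names were mixed. Of 12, 5, 3 and 2 were higher and 2, 2 and 3 lower with LPS at the 3 times, with medians of −0.05, 0.23 and −0.29, and 4, 3 and 3 were higher and 2, 3 and 1 lower with cell extract, with medians of 0.18, 0.13 and −0.26. The shares higher with LPS at 24 and 72 h lie near the 18.6% and 16.1% of all genes. Nfe2l1, the transcription factor that drives proteasome genes when degradation falls short, was higher with cell extract (1.17, 0.99 and 1.05) and with LPS (1.13, 0.86 and 1.08). Ddi2, the protease known to activate it, was lower with LPS (−1.75, −1.42 and −1.23), averaging 21.7 ± 2.2 CPM with LPS at 8 h and 73.3 ± 8.9 CPM in controls (SD, n = 4 each). The pair thus moved in opposite directions in the same libraries. Pomp, the maturation factor of the core, rose with LPS by 0.95, 1.41 and 0.77. Zfand2a, a stress-induced proteasome-binding protein, was lower with LPS by −1.43 at 8 h on the log2 scale. Of 10 ubiquitin genes and shuttle factors, 4, 5 and 2 were higher and 1, 1 and 0 lower with LPS, and 2, 3 and 3 were higher and 0, 0 and 1 lower with cell extract. The counts of 2 with LPS at 72 h and with cell extract at 8 h lie near the 16.1% and 13.0% of all genes. These lists were chosen with earlier results of the same data known.

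Across the 12 group means, the genes outside the 48 whose log2 level was most like the mean of the inducible set were Gm4951 (Pearson r = 0.988), Nos2 (0.983), Serpina3g (0.982), Zbp1 (0.981), Tapbpl (0.978), Batf2 (0.978), Idnk (0.976), Apobec3 (0.974), Ccl5 (0.972) and Il15ra (0.972). Among the other 43 proteasome genes the most alike were Psma5 (r = 0.972) and Psma2 (0.966), followed by Psma3 (0.903) and Psmd10 (0.902), and the least alike were Psma8 (−0.52) and Psmg2 (−0.28). The 12 points share libraries and scaling within each group, and the correlations are descriptions with no test.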

How the data were processed

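Single-end RNA-seq of 44 libraries was deposited as 1 table of counts per gene. Reads were trimmed with cutadapt, aligned to mm10 with TopHat2 2.1.1 and Bowtie2 and counted with HTSeq, tools that are named without their order per the submitters' processing notes, and libraries were made from polyadenylated RNA with a CATS kit, per the labels' protocols. Neither the annotation release nor the strand setting is given in the sources used here. The deposited values are raw counts; every column was matched to a sample by its name.

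From these counts, edgeR 4.0.16 (R 4.3.3) was run with TMM factors, a filter on low counts (filterByExpr, minimum count 10), 1 coefficient per group over all 44 libraries and the quasi-likelihood test. Benjamini-Hochberg adjustment covered all 14537 genes, and called means an adjusted p below 0.05. CPM are counts per 1000000 of TMM-scaled library size, and a stated fold is 2 to the power of the fitted log2 fold change. Subunit ratios used counts plus 0.5 and an exact two-sided permutation test. The scripts were tested on simulated data. Alternatives were RLE factors, no filter, the groups compared alone, DESeq2 1.42.0, each library left out in turn, replicate 1 of 3 groups left out together, the 7 libraries rich in ribosomal RNA left out (chosen after seeing the data), a replicate block, and 0.1 in place of 0.5 added to the counts of the ratios. Positions, overlaps and lengths are from GENCODE M21 on GRCm38.

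Named in each comparison were the inducible set, Psmb5, Psmb6, Psmb7 and Psme3, and among the rest the 3 largest called changes each way; up to 3 genes of each other list were taken by their p with LPS. Other genes were chosen after their values were seen. The members and lists were chosen with earlier results of these data known. Among comparisons with 3 or more pairs, same-numbered libraries deviated together (every r above 0.1, lowest 0.116) for cell extract at 8 h and LPS at 8 and 24 h against control. Cell extract at 72 h against control had 2 pairs, with r of 0.249 and 0.284, too few for the rule used, and the labels do not say what a number shares.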

Additional observations from a re-analysis of the deposited data

Results flagged for a closer look

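Of 72 sets of 4 libraries checked over 9 genes, 10 had a library far from the other 3, where chance gives about 1 set in 20. The 9 genes share libraries, so the 72 sets are not independent and the 10 are no test against that rate. Replicate 1 of IL-4 at 24 h, the shallowest library, was the high one for Psmb8 (349 CPM), Psmb9 (71.9 CPM), Psmb10 (531 CPM), Psme1 (223 CPM), Psmb5 (490.2 CPM), Psmb6 (1216 CPM) and Psmb7 (313 CPM). Replicate 1 of LPS at 24 h was high for Psmb6 (580.3 CPM). In controls at 24 h replicate 1 was low for Psmb6 (195 CPM) and high for Psme3 (79.8 CPM).

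Of 27 differences between the effect of a stimulus at 72 h and at 8 h, 4 passed the edgeR quasi-likelihood test after adjustment over all genes. They were −1.46 for Psmb6 and −0.996 for Psmb7 with cell extract, and −1.74 for Psmb10 and 0.73 for Psme3 with IL-4, all on the log2 scale.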

How the results depend on the processing

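The LPS calls of the inducible set held in every alternative, but counts of the 48 called moved in several, and the causes were not tested. With the compared groups fitted alone, 14 were called for cell extract at 72 h (9 in the fit of all groups), 1 for IL-4 at 24 h (14), 40 for cell extract against LPS at 24 h (21), 2 for control 72 h against 8 h (5), and 27 and 3 for the 72 h minus 8 h effects of cell extract (16) and IL-4 (5). With RLE factors the counts were 2 for IL-4 at 8 h (1) and 25 and 8 for the cell extract and IL-4 effect differences, and with DESeq2 they were 2, 26 and 12. With no filter on low counts they were 9 for IL-4 at 24 h, 10 for cell extract against LPS at 24 h, 2 for control 72 h against 8 h, and 10 and 5 for the cell extract and LPS (11) effect differences. Without the 7 libraries rich in ribosomal RNA, a choice made after seeing the data, they were 5 and 3 for IL-4 at 24 and 72 h (14 and 5), 13 for cell extract against LPS at 72 h (28), and 9 and 7 for the cell extract and LPS effect differences. Without replicate 1 of control at 8 and 24 h and of IL-4 at 24 h together, they were 2 and 10 for IL-4 at 24 and 72 h and 8 for the IL-4 effect difference, and Psmb6 with IL-4 at 24 h turned to −0.074 on the log2 scale. The Psme3 calls with LPS were lost without the filter at 8 and 24 h, and at 72 h without the rRNA-rich libraries or with groups alone.

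Leaving out 1 library at a time gave 1 to 3 calls for IL-4 at 8 h, 2 to 15 for IL-4 at 24 h, 17 to 28 for cell extract against LPS at 72 h, 0 to 7 for control 72 h against 8 h, 7 to 13 for the LPS effect difference and 4 to 10 for the IL-4 one. Ratio differences for Psmb8 to Psmb5 ranged from −0.060 to 0.0042 and 0.43 to 0.48 with cell extract at 8 and 24 h, 1.46 to 1.51 and 1.78 to 1.92 with LPS at 24 and 72 h, and −0.31 to −0.25 with IL-4 at 24 h. For Psmb9 to Psmb6 they ranged from −0.19 to −0.13 and 1.14 to 1.23 with cell extract at 8 and 24 h, 1.67 to 1.77 and 2.00 to 2.46 with LPS at 24 and 72 h, and −0.13 to 0.24 and −0.45 to 0.035 with IL-4 at 8 and 24 h. For Psmb10 to Psmb7 they ranged from 0.40 to 0.54 and 0.74 to 0.95 with cell extract at 8 and 24 h, 1.70 to 1.80 and 1.72 to 1.94 with LPS at 24 and 72 h, and 1.26 to 1.51 with IL-4 at 24 h. In 70 of these fits the ratio difference no longer passed the exact permutation test, with adjusted p of 0.0552 to 0.123. Of these, 42 were for cell extract at 24 h and LPS at 72 h, where a library fewer leaves 3 against 3 or 2 against 4. The adjustment covers all 27 comparisons, so a higher p in some of them can raise the adjusted p of others. The part of this in the other 28 was not tested. Adding 0.1 in place of 0.5 changed none of the 27 ratio calls.

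With the replicate number as a block, the counts called were 35, 36 and 41 for cell extract at 8 h and LPS at 8 and 24 h against control, the comparisons in which same-numbered libraries deviated together, against 31, 32 and 40 without it. In the other comparisons such a shared deviation was not seen in every pair, had too few pairs or was not examined. The labels do not say what a number shares. The block moved no count of all called in them by over 1.5 times, while the members lower in control 72 h than 8 h became 1 with it, against 2. There Psme1 with cell extract at 72 h passed with the block (0.79, edgeR adjusted p = 0.00579), and 4 calls did not: Psme2 (0.66, 0.0533) and Psmb6 (0.76, 0.0679) with IL-4 at 24 h, Psme3 in control 72 h against 8 h (−0.38, 0.0545) and the IL-4 effect difference of Psmd7 (−0.85, 0.0559). Among the comparisons with 3 or more pairs, every library correlated best with its own number only for LPS against control and cell extract against LPS, both at 24 h, a hint from the data and not from the design.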
